A study of Mus musculus with 6 samples.

Results

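The genes described here are the nuclear-encoded genes of the mitochondrial respiratory chain, in lung endothelial cells (ECs) that lost Atp6ap2 after birth. They are the 94 of 24972 gene symbols measured whose names begin with Nduf, Uqcr, Atp5 or Cox followed by a digit from 4 to 8, or are Sdha, Sdhb, Sdhc or Sdhd. The choice rests on names alone, but it was made with earlier results of these data known. The names cover 75 widely expressed structural subunits, with 36 in complex I, 4 in complex II, 8 in complex III, 11 in complex IV and 16 in complex V. They also cover 8 tissue isoforms of complex IV subunits, 1 copy of a complex I subunit gene (Ndufb4c, which may share reads with Ndufb4), and 10 genes whose products are not subunits, namely 8 Ndufaf assembly factors, Cox7a2l and Atp5s. The names do not take in Cyc1, the cytochrome c1 gene of complex III, or Usmg5, a subunit gene of complex V. The subunits encoded by mitochondrial DNA were not analysed here.

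RNA-Seq was done on iLECs, the cells bound by CD31-coated magnetic beads from digested mouse lungs at postnatal day 7 (P7). Control pups (n = 3) were Atp6ap2 fl/Y in the labels, with no Cre, and Atp6ap2 iECKO pups (n = 3) were Atp6ap2 fl/Y with Cdh5-CreERT2, in which the VE-cadherin promoter drives a tamoxifen-inducible Cre in ECs. Both groups carried the floxed allele, were given tamoxifen (100 μg) daily from P1 through P3, and were labelled C57BL/6, whereas the study's methods give a mixed CD1 and C57BL/6 background. The genotypes were compared to ask what loss of ATP6AP2, an accessory subunit of the proton-pumping V-ATPase, changed in these cells.

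The respiratory chain sits in the inner mitochondrial membrane. Complex I (NADH dehydrogenase) and complex II (succinate dehydrogenase) pass electrons to ubiquinone, complex III passes them to cytochrome c, complex IV (cytochrome c oxidase) passes them to oxygen, and complex V (ATP synthase) uses the resulting proton gradient to make ATP. Most subunits are encoded in the nucleus and have 1 widely expressed gene, but some complex IV subunits have isoforms that are restricted to certain tissues. COX4I2, the alternative isoform of subunit 4, is known from lung and takes part in oxygen sensing, and NDUFA4L2, the alternative form of the complex IV subunit NDUFA4, is induced by low oxygen. Both are also known as transcripts of pericytes, the mural cells of small vessels. ECs meet much of their energy demand by glycolysis.

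Atp6ap2 (chrX:12587801-12617049, GRCm38) checked the labels. Its normalized counts were 7490, 5815 and 5681 in control and 4220, 2336 and 1982 in Atp6ap2 iECKO replicates 1, 2 and 3. The genotypes did not overlap, with the highest residual level in Atp6ap2 iECKO replicate 1, and the gene was 2.33-fold lower (log2 -1.22, SE 0.260, limma adjusted P = 0.0306). The call was kept in only 1 of the 6 fits that left out a library. All 6 labels give a male genotype. Xist, the RNA of the inactive X chromosome, was at 31.7 in control replicate 3 and 19.3 in Atp6ap2 iECKO replicate 2, and between 37704 and 47487 in the other 4 libraries, and the methods say that both sexes were used. Sums of the deposited values ran from 26243878 to 28725799 per library. The commonest low value, which tracks what 1 read was worth, was 2.26 to 2.34 in control and 1.51 to 1.87 in Atp6ap2 iECKO.

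Sequence motifs shared by the genes were read from RefSeq promoter windows (GRCm38.p6), each 250 bases before to 50 bases after a start site, which were given for 74 of the 94 genes and 62 of the 75 structural subunits. The core of the motif of NRF1, a transcription factor known for binding many nuclear genes of the respiratory chain, was searched as GCATGCG on both strands. It stood in at least 1 window of 11 of the 62 subunits (17.7%), against 4.01% of all 27025 symbols with a window. Those symbols were not matched to the subunits by expression or promoter type. From each complex, 1 gene described in the results is shown with 10 bases on each side of its first match, 5′ to 3′ on the gene's strand and with the matched core in capitals in either orientation, to show the letters that the 5 complexes have in common.
Ndufa6 (complex I, chr15:82354358-82354384, minus strand): ccgcggtagaGCATGCGcattgcagag
Sdhb (complex II, chr4:140961207-140961233, plus strand): agcccagtggGCATGCGccctacgggc
Uqcrc1 (complex III, chr9:108936669-108936695, plus strand): ctccgctctgCGCATGCgcagcgcggc
Cox6a1 (complex IV, chr5:115349103-115349129, minus strand): aggaacggggCGCATGCgcgctctcgc
Atp5g2 (complex V, chr15:102671072-102671098, minus strand): gctccggccgCGCATGCgcagagcctt
The ETS-type motif CCGGAAG, searched on both strands, was found for 16 subunits (25.8%) against 9.93% of all symbols, and the YY1 core AAGATGG for 10 (16.1%) against 7.28%. A match describes the letters and not a bound site, and some genes hold more than 1 of these motifs. The 11 genes with the NRF1 core had log2 fold changes from -0.34 to 0.23, with a median of 0.11 against 0.06 for the subunits whose window lacked it, and none of the 11 passed the test described next.

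The structural subunits were at nearly the same level in both genotypes. Of 75, all of them tested, 1 was higher in Atp6ap2 iECKO iLECs at an adjusted P below 0.05 and 0 were lower, whereas 8.25% of the 14456 genes tested were called (3.28% higher and 4.97% lower). With an unadjusted P below 0.05, 7 subunits were higher and 2 lower (12%, against 23.9% of all genes). In 18 (24.0%) the genotypes did not overlap, 14 with higher and 4 with lower values in Atp6ap2 iECKO. Over all genes these shares were 29.8% in either direction, 14.7% higher and 15% lower. In direction alone, 52 had a higher and 23 a lower estimate (69.3% higher, against 50.7% of all genes), and the number higher ran from 46 to 58 when 1 library was left out. The log2 fold changes had a median of 0.06 (0.13 without control replicate 3, 0.03 without control replicate 1), an interquartile range of -0.03 to 0.16 and a full range of -0.34 to 0.50, whereas the median over all tested genes was 0.005 with an interquartile range of -0.22 to 0.20.

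These data bounded most of the differences closely. The 95% confidence interval of the fold change lay within 1.5-fold in either direction for 69 of the 75 subunits (92.0%), and within 2-fold for all 75. Over all tested genes the first share was 47.1%, and among the 9079 genes within the subunits' range of levels it was 68.4%. The estimate itself was within 1.3-fold for 73 subunits (97.3%, against 71.6% of all genes), and the other 2, Ndufab1 and Uqcrq, had higher values in Atp6ap2 iECKO. Ndufs5, named because its SE of 0.338 was the widest of the subunits, had 222.3, 421.7 and 523.9 in control and 298.3, 268.7 and 478.8 in Atp6ap2 iECKO, so for this gene a difference was not detectable at this spread.

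**Figure D1:**
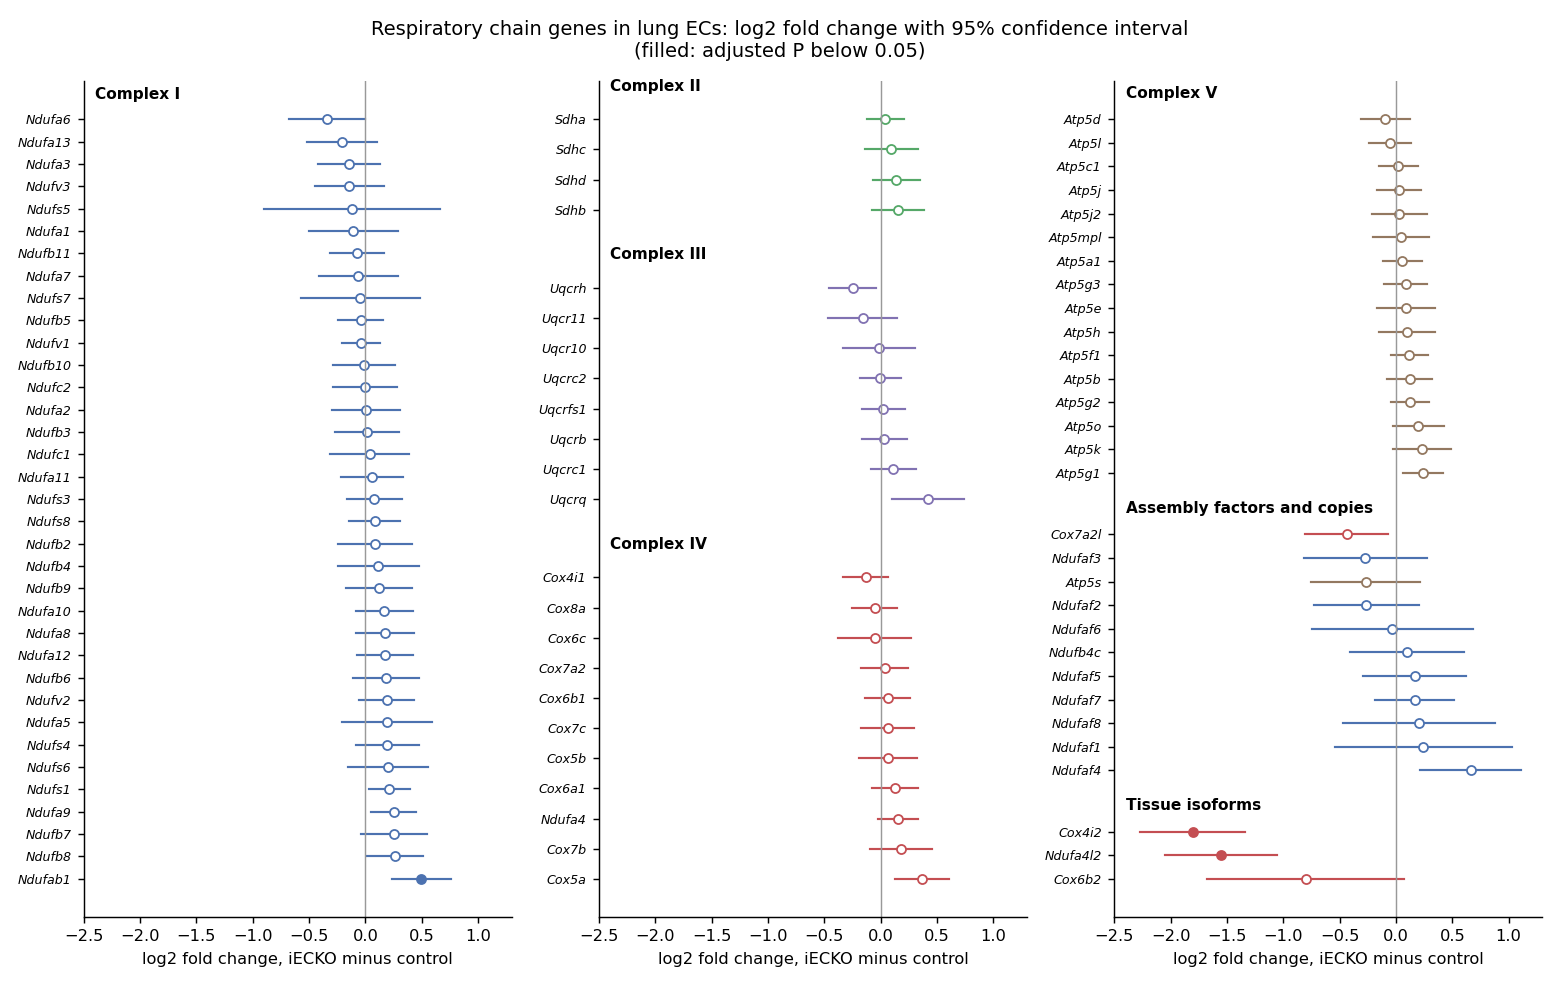
Log2 fold change (Atp6ap2 iECKO minus control, x axis) of 88 tested genes, each with its 95% confidence interval, grouped by complex on the y axis. Circles are filled where the adjusted P is below 0.05, which holds for Ndufab1, Cox4i2 and Ndufa4l2. The structural subunits lie between -0.34 and 0.50, and the called isoforms at -1.81 and -1.55.

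Summed over the subunits of each complex, the genotypes overlapped in all 5 complexes. Complex I summed to 24127 ± 1852 normalized counts in control and 24934 ± 670 in Atp6ap2 iECKO (mean ± SD, n = 3 each), or 103.3% of control. Complex II summed to 6527 ± 241 and 6950 ± 304 (106.5%), and complex III to 10917 ± 461 and 10961 ± 245 (100.4%). Complex IV, without its tissue isoforms, summed to 16444 ± 1024 and 16875 ± 783 (102.6%), and complex V to 48034 ± 1406 and 50950 ± 2323 (106.1%). Control replicate 3 had the highest control sum in every complex, and Atp6ap2 iECKO replicate 1 the highest sum of its genotype. All 75 subunits took up 0.385% ± 0.034 of the normalized counts in control and 0.412% ± 0.008 in Atp6ap2 iECKO. In bulk libraries such as these, fewer cells of a type and less RNA per cell cannot be told apart.

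**Figure D2:**
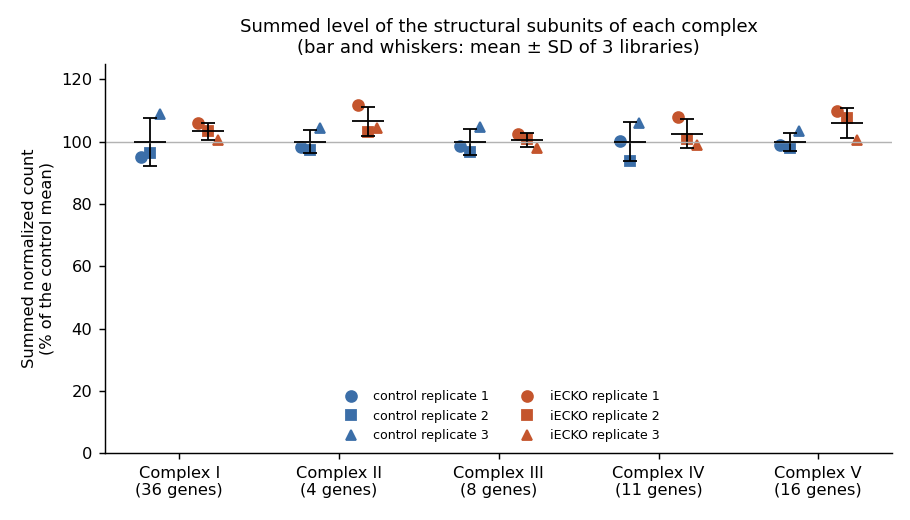
Summed normalized count of the structural subunits of each complex, as a percentage of the control mean (y axis, from 0), for the 5 complexes (x axis). Points are libraries, shaped by replicate, and bars with whiskers are the mean ± SD of 3. Every library lies between 93.6% and 111.8% of the control mean, and the genotypes overlap in each complex.

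Complex I held the only subunit called. Its 36 subunits had a median log2 fold change of 0.07, with 22 higher and 14 lower in direction. Ndufab1 (chr7:122085403-122101886), whose product is the mitochondrial acyl carrier protein and also serves fatty acid and lipoic acid synthesis, was at 389.6, 371.7 and 435.1 in control and at 576.6, 551.6 and 558.0 in Atp6ap2 iECKO. The lowest Atp6ap2 iECKO value was above the highest control value. The gene was 1.41-fold higher (log2 0.50, SE 0.113, adjusted P = 0.0380). This call was lost in each of the 6 fits that left out 1 library (log2 0.45 to 0.56, adjusted P from 0.0640 to 0.133), and with the Xist level as a covariate (adjusted P = 0.0649).

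Ndufa6, a subunit of the arm that reaches into the matrix, had the lowest estimate of the complex. Its values were 848.9, 618.9 and 887.8 in control and 622.9, 606.9 and 606.1 in Atp6ap2 iECKO. Control replicate 2 lay among the Atp6ap2 iECKO values while the other control libraries were above them (log2 -0.34, SE 0.146, adjusted P = 0.204). Without control replicate 2 it passed the test, with an adjusted P of 0.0421. Ndufs1, the largest iron-sulfur subunit, had 1270, 1250 and 1317 in control and 1458, 1544 and 1448 in Atp6ap2 iECKO, with no overlap, but did not pass the test (log2 0.21, adjusted P = 0.143). Ndufv1, which binds NADH, had a log2 fold change of -0.04 (95% interval -0.21 to 0.13), or 0.0010 when libraries were scaled to their totals.

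Within complex I the 7 core subunits had a median log2 fold change of 0.08. The 10 accessory subunits counted with the matrix arm had a median of 0.18. The called gene, Ndufab1, was counted there only. The 19 accessory subunits of the membrane arm had a median of 0.04. Differences between these arms were not tested. Ndufa9 and Ndufb8, named after their values were seen because they passed an unadjusted P of 0.05, had log2 fold changes of 0.25 (adjusted P = 0.122) and 0.26 (adjusted P = 0.189).

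Complex II, which belongs both to the chain and to the tricarboxylic acid (TCA) cycle, had 4 of 4 subunits higher in direction, and none was called. Sdha, the flavoprotein and the most abundant of the 4 by normalized count, had 2816, 2865 and 2967 in control and 3069, 2895 and 2938 in Atp6ap2 iECKO. These values interleave (log2 0.04, 95% interval -0.12 to 0.21). Sdhb, the iron-sulfur subunit, had the highest estimate, at 0.15 (-0.08 to 0.38).

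Complex III had 4 subunits higher and 4 lower in direction, with a median of 0.01 and none called. Uqcrq, a small accessory subunit, was at 577.9, 735.2 and 784.0 in control and at 831.7, 974.1 and 990.9 in Atp6ap2 iECKO. All 3 Atp6ap2 iECKO libraries were above all control libraries, but the difference did not pass the test (log2 0.42, SE 0.139, adjusted P = 0.110). Uqcrh, the hinge protein, was the reverse in direction. It had 2344, 2016 and 2220 in control and 1964, 1831 and 1741 in Atp6ap2 iECKO, again with no overlap and with no call (log2 -0.25, SE 0.090, adjusted P = 0.139). Uqcrfs1, the Rieske iron-sulfur protein, was at 0.02 (95% interval -0.17 to 0.22) and Uqcrc1, a core protein, at 0.11 (-0.09 to 0.31).

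Among the 11 widely expressed complex IV subunits, the highest estimate was that of Cox5a. It had 979.4, 842.9 and 1055 in control and 1230, 1202 and 1259 in Atp6ap2 iECKO, without overlap, and missed the threshold (log2 0.36, SE 0.104, adjusted P = 0.0720). Cox4i1, the widely expressed isoform of subunit 4 and the most abundant of the complex by normalized count, had the lowest estimate. Its values were 4135, 3737 and 4097 in control and 3960, 3551 and 3412 in Atp6ap2 iECKO, which overlap (log2 -0.13, 95% interval -0.33 to 0.07, adjusted P = 0.406). Cox6a1, Cox6b1, Cox7a2, Cox7b and Cox8a, the other subunits with a tissue isoform besides Ndufa4, lay between -0.06 and 0.18.

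Complex V was the most abundant complex by summed normalized count, and 14 of its 16 subunits were higher in direction, with a median of 0.09 and none called. The subunits of the catalytic head dominated its sum. Atp5b, the beta subunit, had 14299, 14116 and 14612 in control and 16574, 15832 and 14479 in Atp6ap2 iECKO. Atp6ap2 iECKO replicate 3 lay within the control range and the other Atp6ap2 iECKO libraries above it (log2 0.12, 95% interval -0.08 to 0.32). Atp5a1, the alpha subunit, was at 0.06 (-0.12 to 0.23), and Atp5d, the delta subunit, had the lowest estimate at -0.09 (-0.31 to 0.12).

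The c ring, the part that turns as protons pass, is built from 1 protein encoded by 3 genes. Atp5g1 had the highest estimate of complex V, with 1076, 1052 and 1072 in control and 1253, 1262 and 1259 in Atp6ap2 iECKO. Its genotypes were far apart relative to the spread within each, but the difference did not pass the test (log2 0.24, SE 0.077, adjusted P = 0.105). Atp5g2 was at 0.12 and Atp5g3 at 0.09. The log2 ratio of Atp5g1 to Atp5g3 differed by 0.15 between genotypes and that of Atp5g2 to Atp5g3 by 0.04, with exact two-sided permutation P values of 0.2 and 0.7.

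**Figure D3:**
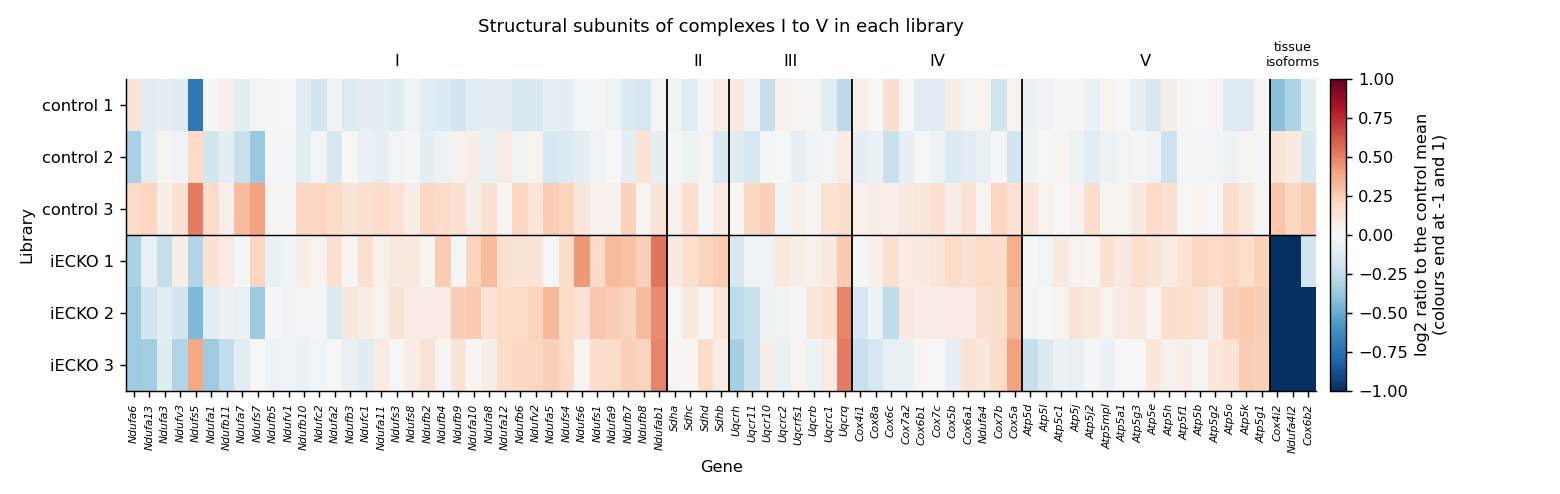
Log2 ratio to the control mean (colour, ending at -1 and 1) for 74 structural subunits, ordered by complex and then by fold change, and 3 tissue isoforms (x axis) in each of the 6 libraries (y axis). The colours of the structural subunits are pale in both genotypes, with Ndufs5 varying within genotypes, while Cox4i2 and Ndufa4l2 are dark blue in all 3 Atp6ap2 iECKO libraries.

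Libraries of 1 genotype differed by about as much as the genotypes did. The median log2 ratio of the 75 subunits to their control means was -0.04, -0.05 and 0.11 in control replicates 1, 2 and 3 and 0.10, 0.08 and 0.01 in the Atp6ap2 iECKO replicates. Control replicate 3 was thus above every Atp6ap2 iECKO library. The same library had the highest sum of 12 lung epithelial markers, 71951 against 26643 to 40313 in the other 5, and the part of that in its subunit levels was not tested. The 3 subunit genes on the X chromosome, Ndufa1, Ndufb11 and Cox7b, had log2 fold changes of -0.11, -0.07 and 0.18, with adjusted P values of 0.759, 0.726 and 0.413.

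The tissue isoforms stood apart from the structural subunits. Of 8, 3 were expressed above the filter, and 2 of these 3 were called lower in Atp6ap2 iECKO iLECs (4.97% of all tested genes were called lower). Cox4i2 (chr2:152754173-152765037) was at 538.7, 791.9 and 872.3 normalized counts in control and at 230.1, 212.5 and 176.3 in Atp6ap2 iECKO. Each control library was more than double any Atp6ap2 iECKO library, with control replicate 1 the lowest of its group. It was 3.50-fold lower (log2 -1.81, SE 0.203, adjusted P = 0.00831). Ndufa4l2 (chr10:127514967-127517154) was at 397.5, 528.1 and 569.6 in control and at 215.0, 161.3 and 135.7 in Atp6ap2 iECKO. Control replicate 1 was again the lowest control and Atp6ap2 iECKO replicate 1 the highest of its group, without overlap. This gene was 2.93-fold lower (log2 -1.55, SE 0.215, adjusted P = 0.0104). Both calls held in each of the 6 fits that left out a library, with adjusted P values up to 0.0410 for Cox4i2 and 0.0474 for Ndufa4l2.

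Cox6b2, known as a testis isoform of subunit 6B, was low, at 35.8, 34.6 and 46.0 in control and 33.7, 18.2 and 16.4 in Atp6ap2 iECKO. The highest Atp6ap2 iECKO value was just below the lowest control value, and the difference did not pass the test (log2 -0.80, SE 0.378, adjusted P = 0.246). Cox6a2, Cox7a1 and Cox8b, isoforms of heart and skeletal muscle, were between 0 and 7.5 in every library and were not tested. Cox7b2 and Cox8c were listed at 0 in all 6 libraries.

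The isoforms were also set against their widely expressed partners. Per length of the median coding transcript, Cox4i2 made up 11.9%, 18.0% and 18.0% of the summed level of Cox4i1 and Cox4i2 in control, and 5.67%, 5.83% and 5.07% in Atp6ap2 iECKO. The shares did not overlap, with means of 16.0% ± 3.5 and 5.52% ± 0.40 (SD, n = 3 each). Ndufa4l2 made up 14.7% ± 2.5 of its pair with Ndufa4 in control and 5.01% ± 1.00 in Atp6ap2 iECKO, while Ndufa4 itself was at 1459, 1363 and 1457 in control and 1626, 1588 and 1540 in Atp6ap2 iECKO (log2 0.15, adjusted P = 0.282). The log2 ratio of isoform to partner differed by -1.67 for Cox4i2, by -1.70 for Ndufa4l2 and by -0.86 for Cox6b2. Each ratio was lower in all 3 Atp6ap2 iECKO libraries than in any control library, and the exact two-sided permutation P of 0.1 is the smallest that 3 libraries against 3 allow (0.167 after adjustment over the 5 pairs compared).

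**Figure D4:**
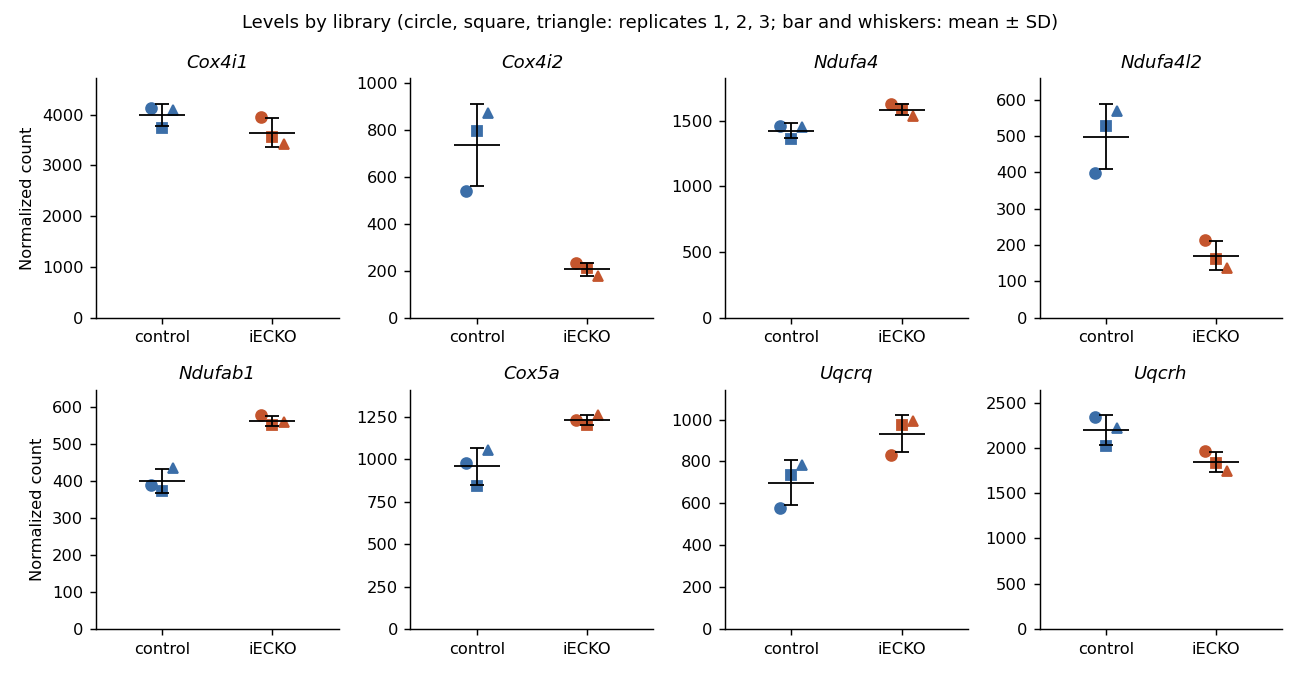
Normalized count (y axes, each from 0) of 8 genes in control and Atp6ap2 iECKO libraries (x axes), as points shaped by replicate with the mean ± SD of 3. Cox4i2 and Ndufa4l2 are lower in every Atp6ap2 iECKO library, while their partners Cox4i1 and Ndufa4 differ by 0.13 and 0.15 in size on the log2 scale.

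Markers of mural cells and fibroblasts moved with these isoforms. Of 14 pericyte markers tested, a list that leaves out Cox4i2 and Ndufa4l2, 10 (71.4%) were called lower in Atp6ap2 iECKO and 0 higher. Of all tested genes, 4.97% were called lower and 3.28% higher. The median log2 fold change of the 14 was -1.496. Among the pericyte markers, Pdgfrb, the receptor that pericytes need for recruitment, was at -1.54 (adjusted P = 0.00831). Rgs5, a regulator of G protein signalling, was at -1.94 (adjusted P = 0.00562). In direction 12 of the 14 were lower and 2 higher, Mcam and Lamc3. Lamc3 was at 0.17 (adjusted P = 0.774) and stays in all pericyte measures given here. The summed level of the 14 pericyte markers ran from 76496 to 81322 in control and from 49941 to 61232 in Atp6ap2 iECKO. None of the 14 was at 0 in every library. Mcam, which ECs also express, made up a large part of that sum and was at 0.10. Without it the sum ran from 33569 to 46873 in control and from 12939 to 17898 in Atp6ap2 iECKO.

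Of 8 smooth muscle markers, 3 (37.5%, against 4.97% of all tested genes) were called lower and the median was -1.42. All 8 had a lower estimate. In 6 (75%) the genotypes did not overlap, all with lower values in Atp6ap2 iECKO, against 15% of all tested genes. The sums of the 8 markers were 3471 to 6718 in control and 1748 to 2145 in Atp6ap2 iECKO. Of 11 fibroblast markers tested, 9 (81.8%) were called lower and the median was -1.496, though Mfap5 was at 0.55 (adjusted P = 0.313). The list had sums of 79576 to 124740 in control and 27416 to 39585 in Atp6ap2 iECKO. The 14 endothelial markers had a median of 0.05, with 1 (7.1%) called lower, Tek (log2 -0.53, adjusted P = 0.0292). Their sums were 342743 to 444902 in control and 362423 to 420774 in Atp6ap2 iECKO. Epithelial, leukocyte, erythroid and cardiomyocyte markers had 1 called gene between them, Scgb1a1, which was higher (log2 1.75, adjusted P = 0.0408). It was 8.3% of the epithelial list, whereas 8.25% of all tested genes were called. The medians of these lists were -0.11, 0.29, -0.57 and 0.60. All 5 tested erythroid markers had a lower estimate, and none was called. The erythroid sums overlapped, at 11205 to 47724 in control and 10591 to 22091 in Atp6ap2 iECKO.

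Across the 6 libraries the median log2 ratio of the 14 pericyte markers to their control means was -0.28, 0.17 and 0.13 in control and -1.14, -1.5 and -1.65 in Atp6ap2 iECKO. The same ratio for Cox4i2 was -0.42, 0.14 and 0.28 in control and -1.64, -1.75 and -2.02 in Atp6ap2 iECKO, and for Ndufa4l2 it was -0.31, 0.10 and 0.21, and -1.19, -1.60 and -1.85. Control replicate 1 was the lowest control and Atp6ap2 iECKO replicate 1 the highest of its genotype in all 3 measures. The same held for the fibroblast markers, at -0.40, 0.23 and 0.18 in control and -1.35, -1.63 and -1.71 in Atp6ap2 iECKO. The smooth muscle markers were at -0.65, 0.30 and 0.41, and -1.51, -1.27 and -1.36. There Atp6ap2 iECKO replicate 1 was instead the lowest of its genotype. Both isoforms were also set against the median of the 13 pericyte markers without Mcam in the same library, a comparison chosen after the values were seen. On this measure Ndufa4l2 differed between genotypes by -0.06 (exact permutation P = 0.5) and Cox4i2 by -0.32 (exact permutation P = 0.1, the smallest possible). Cox4i2 was at -0.12, -0.05 and 0.14 in control and -0.48, -0.16 and -0.35 in Atp6ap2 iECKO, without overlap. The part of the mural markers in the levels of both isoforms was not tested beyond these values.

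**Figure D5:**
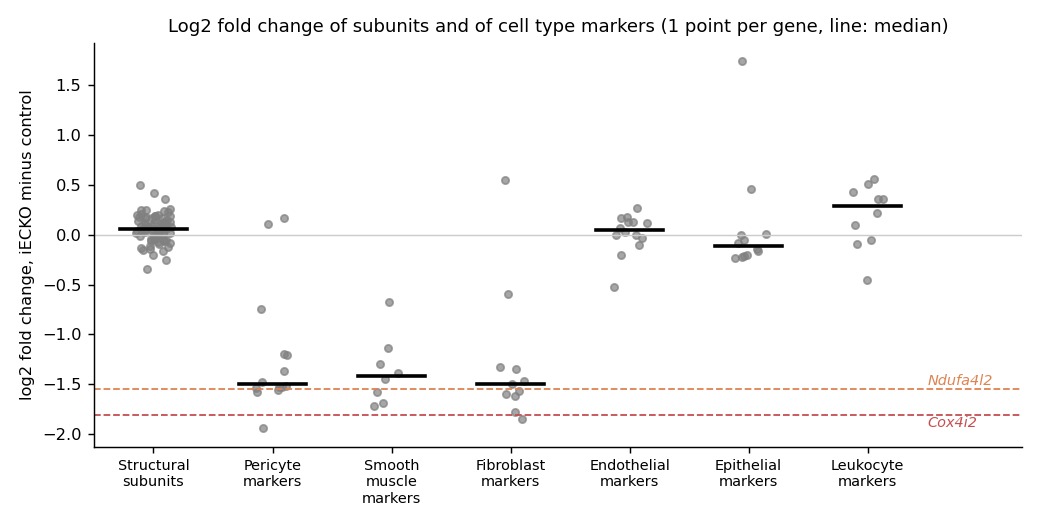
Log2 fold change (Atp6ap2 iECKO minus control, y axis) of the 75 structural subunits and of 6 lists of cell type markers (x axis), with 1 point per gene and a line at the median. Dashed lines mark Cox4i2 at -1.81 and Ndufa4l2 at -1.55. The pericyte, smooth muscle and fibroblast markers have medians of -1.496, -1.42 and -1.496, and lowest values of -1.94, -1.72 and -1.84. Ndufa4l2 lies among all 3 lists. Cox4i2 lies near the low end of the pericyte and fibroblast markers and below every smooth muscle marker. The structural subunits centre on 0.06.

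Of the 10 genes whose products are not subunits, none was called, against 8.25% of all tested genes, and in 4 (40%) the genotypes did not overlap, against 29.8%. The 8 Ndufaf genes, which assist the assembly of complex I, had a median log2 fold change of 0.16. Ndufaf4, named after its values were seen, was at 187.5, 264.9 and 180.8 in control and 282.4, 361.8 and 350.1 in Atp6ap2 iECKO, without overlap, and missed the threshold (log2 0.66, SE 0.195, adjusted P = 0.0804). Cox7a2l, known as a factor for supercomplexes of complexes III and IV, is also named after its values were seen. It had 4699, 3133 and 4100 in control and 3381, 2703 and 2659 in Atp6ap2 iECKO. Atp6ap2 iECKO replicate 1 lay above control replicate 2, so the genotypes overlapped (log2 -0.44, SE 0.159, adjusted P = 0.141).

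Other genes of the pathway were read from 3 lists, against the 8.25% of all tested genes that were called. Among 51 tested genes for electron carriers, assembly and translation factors of the chain, 1 was called higher and 0 lower (2.0%), with a median of 0.13. The list also holds the subunit genes Cyc1 and Usmg5. The called gene was Lrpprc, which stabilizes mitochondrial messenger RNAs. It was at 785.4, 835.4 and 731.4 in control and 1009, 1109 and 1217 in Atp6ap2 iECKO, without overlap (log2 0.50, adjusted P = 0.0300), and the call held in 2 of the 6 fits that left out a library. Of 18 genes of the TCA cycle and pyruvate dehydrogenase, 1 was called higher and 0 lower (5.6%), with a median of 0.07. In this list 6 genes (33.3%) had an unadjusted P below 0.05, against 23.9% of all tested genes, and in 8 (44.4%) the genotypes did not overlap, against 29.8%. The called gene was Mdh2, the mitochondrial malate dehydrogenase, with 2399, 2419 and 2385 in control and 3019, 2830 and 2925 in Atp6ap2 iECKO. The control values lay within a narrow range and all Atp6ap2 iECKO values above it (log2 0.28, adjusted P = 0.0471), but the call held in 0 of the 6 fits that left out a library. Of 19 tested regulators of mitochondrial biogenesis, such as Nrf1 and Tfam, 0 were called by limma and 0 had an unadjusted P below 0.05, with a median of 0.13. The summed level of each list was higher in all 3 Atp6ap2 iECKO libraries than in any control library. It ran from 18699 to 20006 in control and from 20166 to 21164 in Atp6ap2 iECKO for the first list, from 33347 to 35801 and from 36115 to 37038 for the TCA cycle list, and from 19989 to 21241 and from 21420 to 23175 for the regulators. These sums were not tested. Cycs was the largest term of the first list, at 1649 ± 138 in control and 2003 ± 136 in Atp6ap2 iECKO (mean ± SD). Its genotypes did not overlap, and it was not called (limma adjusted P = 0.115). Of the 8 TCA cycle list genes without overlap, 6 were higher and 2 lower. The lower ones were Pdha1 (log2 -0.20) and Suclg2 (log2 -0.28). The largest term of the regulator sum was Pprc1, at 4706 ± 618 in control and 5580 ± 498 in Atp6ap2 iECKO (mean ± SD). Its genotypes overlapped (limma adjusted P = 0.245). Gene by gene, the genotypes did not overlap in 27.5% of the first list, with 13 genes higher and 1 lower. For the regulators the share was 15.8%, with 3 genes higher and 0 lower. Over all tested genes it was 29.8%, with 14.7% higher and 15% lower. Estimates were higher for 60.8% of the first list, 77.8% of the TCA cycle list and 73.7% of the regulators. Of all tested genes, 50.7% had a higher estimate.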

How the data were processed

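The deposited table holds 1 value per gene symbol and library. The authors used BaseSpace tools, one for alignment to mm10 and one for quantification. The labels call the values raw counts, but the deposited values are a normalized signal: they are not whole, and every library had the same median ratio (1.0036) to the geometric mean over libraries. They are called normalized counts here. Only 6.57% to 11.7% of values per library were whole multiples (within 0.01) of its commonest low value, so reads were not recovered, no count model was run, and the true depth is unknown.

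Values were analysed as log2(normalized count + 1). The test covered the 14456 genes that reached 10 in 3 or more libraries. It was limma (version 3.58.1, R 4.3.3) with its trend option on, without covariates, on the 6 libraries together, followed by Benjamini-Hochberg adjustment over every gene tested and a threshold of 0.05. Fold changes are on this log2 scale, which understates those of low genes. Isoform ratios were compared with exact two-sided permutation tests (scipy 1.17.1). The fit was run on simulated data with independent genes and log2 changes larger than any structural subunit's, which does not bear on small differences. Replicates are described as biological. Positions are from GENCODE for GRCm38 (94 of 94 members matched). Alternatives were other pseudocounts, filters and scalings, no trend, an Xist covariate, a replicate block and leaving out each library.

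The members, gene lists and marker lists were chosen with earlier results of these data known, and motifs after the values were seen. Genes were named by rule: Atp6ap2, called members, isoforms and their partners, in each complex the subunits with the highest and lowest fold change and the highest level, X-linked members, catalytic subunits, and up to 4 called genes per pathway list. Markers and the genes said to be chosen after their values were seen fall outside it. No protein sequences were used here. The values of 1 gene that the rule names are not reported here, and it is left out of the plots by gene.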

Additional observations from a re-analysis of the deposited data

How the results depend on the processing

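The calls of Cox4i2 and Ndufa4l2 held under every alternative run, whereas the single calls of Ndufab1, Lrpprc and Mdh2 did not. No alternative called more than 2 structural subunits. Where a fit called few genes in all, down to 204 of 14456, a low number called does not set the subunits apart. The structural subunits called numbered 1 as reported, 0 with the Xist covariate or with no mean-variance trend, 2 with the replicate block (Ndufab1 and Uqcrq), and 0 to 1 when 1 library was left out, where the 1 was Ndufa6 without control replicate 2. Genes called in all were 1193, against 767 with the Xist covariate, 304 with no trend and 204 to 989 without 1 library (204 without Atp6ap2 iECKO replicate 3). Genes of the assembly group called were 0, against 2 with the replicate block (Cox7a2l and Ndufaf4) and 0 to 1 without 1 library. Pathway-list genes called were 2, against 0 with the Xist covariate or no trend, 1 with no filter and 0 to 3 without 1 library. The cause of these shifts was not tested. The median log2 fold change of the structural subunits ran from 0.03 to 0.13. The number of structural subunits with a higher estimate ran from 46 (without control replicate 2) to 58, so some estimates turned direction. Of the genes named by rule, Ndufv1 reached 0.0010 under scaling to library totals, and leaving out 1 library gave ranges of -0.0079 to 0.0852 for Cox7a2, -0.1084 to 0.0006 for Cox8a, -0.2353 to 0.0183 for Ndufa1, -0.1525 to 0.0112 for Ndufb11, -0.0172 to 0.0510 for Uqcrfs1 and -0.0039 to 0.0907 for the ratio of Atp5g2 to Atp5g3. Replicate numbers are shared between genotypes only as labels. Same-numbered libraries deviated together with r of 0.252, 0.114 and 0.0782, control replicate 3 correlated best with Atp6ap2 iECKO replicate 2 (0.1), and the replicate block raised the number of genes called to 1508. Precision rested on 3 libraries a group, with a median SE of 0.11 (log2) over the structural subunits.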
